A study of Mus musculus with 2 samples.

Results

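Fatty acid uptake and lipid storage was followed through 10 genes, chosen by name from the 31053 genes measured in 1 pooled mouse tumour suspension. The members were Cd36, Lpl, Fabp4 and Fabp5 (uptake and binding), Plin2, Dgat1, Dgat2 and Pnpla2 (storage and lipolysis), and Abca1 and Abcg1 (sterol efflux). All 10 symbols were found. The pool joined 3 vehicle-treated and 3 ACSS2i-treated samples. ACSS2 is acetyl-CoA synthetase 2, which makes acetyl-CoA from acetate, and the series' title places its inhibitors in triple-negative breast cancer. The labels give the tissue as tumor and the strain as "NGS mouse", and the series' design line names Bmal1 status, which no sample label carries. Age, cell line, dose and duration are not in the labels. The matrix carries 6 antibody tags, as many as there were samples, named U2 to U4, D0, D1 and D4. The sources used here do not say which tag marked which arm. So no vehicle and ACSS2i values can be set against each other, each tag is a sample of unknown treatment, and no test between groups was made. The comparisons are between cell classes of this 1 pool.

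Cells take up fatty acids freed from lipoproteins by lipoprotein lipase (Lpl), partly through the scavenger receptor CD36, and carry them in the cytosol bound to proteins such as FABP4 and FABP5. DGAT1 and DGAT2 add the last acyl chain of triglyceride, perilipin 2 (Plin2) coats the resulting droplets, and adipose triglyceride lipase (Pnpla2) opens them again. ABCA1 and ABCG1 export cholesterol to apolipoproteins and lipoprotein particles, and both are known targets of the sterol-sensing LXR receptors. In tumours, lipid-laden macrophages are a known site of this programme.

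Regulatory sequence was held for 4 of the 10 members (Abca1, Cd36, Plin2 and Pnpla2), as the 250 bases before the RefSeq start in build GRCm38.p6. Those of Abca1 and Plin2 are shown because Abca1 differed widely between the classes and Plin2 was near one level in tumour and macrophage-like cells. The Abca1 stretch lies at chr4:53159896-53160145 and the Plin2 stretch at chr4:86670060-86670309, both on the minus strand and written 5′ to 3′. Capitals mark letters of known promoter elements. CACGTG is the E-box bound by many helix-loop-helix factors. GGGCGG is the core of the box bound by Sp1. TATAAA is the classical element at which the transcription machinery assembles. AGGTCA is the half-site recognised by nuclear receptors, and it reads TGACCT when it lies on the opposite strand.
Abca1: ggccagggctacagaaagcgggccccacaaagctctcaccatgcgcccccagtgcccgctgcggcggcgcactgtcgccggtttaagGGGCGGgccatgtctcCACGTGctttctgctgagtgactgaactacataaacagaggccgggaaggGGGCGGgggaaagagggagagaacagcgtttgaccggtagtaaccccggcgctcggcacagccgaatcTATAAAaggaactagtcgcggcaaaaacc
Plin2: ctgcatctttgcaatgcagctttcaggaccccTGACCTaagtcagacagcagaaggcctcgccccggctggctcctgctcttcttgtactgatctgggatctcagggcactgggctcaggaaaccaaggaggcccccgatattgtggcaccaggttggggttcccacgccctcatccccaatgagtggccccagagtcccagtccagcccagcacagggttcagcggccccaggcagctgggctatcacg
The Abca1 stretch held TATAAA 29 bases before the start, CACGTG at 147, and GGGCGG at 97 and 163. The Plin2 stretch held AGGTCA at 218 bases before the start. Both strands were searched, and over 32851 RefSeq promoter stretches of the same length the box GGGCGG was found in 32.7% and the half-site AGGTCA in 14%. The element TATAAA was found in 12.4% and the E-box in 6.02%. Exact direct repeats of AGGTCA with 4 bases between them (0.0152% of all stretches) or 1 base (0.0335%) were not found in the 4 members' stretches. Such repeats are the forms bound by LXR and PPAR receptors. Only exact copies were searched, so this absence says nothing of imperfect repeats. A match is a description of letters and not a binding site.

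The matrix held 9747 cell barcodes and 187339115 gene UMIs (unique molecules counted at the 3′ end of transcripts), with a median of 18388 UMIs a barcode and no barcode listed more than once. After filters on genes, mitochondrial share and tag doublets, 7919 barcodes remained, and 5590 of them carried 1 tag, from 249 (D4) to 2311 (U2). Classes were set by gates on marker genes. The tumour gate took Krt8 and Krt18 (epithelial keratins) without Ptprc (CD45), the macrophage gate the C1q genes, the T gate the Cd3 genes, and the dendritic gate Ccr7, Fscn1, Flt3 and Cd209a. Barcodes that met exactly 1 of the 4 gates were used: 2196 tumour cells (median 20331 UMIs), 373 macrophage-like cells (median 4200), 730 T-like cells (median 1647.5) and 281 in the dendritic gate (median 15034). Levels are CPM, a class's summed UMIs of a gene scaled to a class total of 1000000 UMIs, with exact Poisson 95% intervals, and ratios carry exact conditional binomial intervals. Both cover counting error in this pool only. A gene was called higher or lower past a 2-fold ratio. In a pool of cells, fewer molecules in every cell and fewer cells with the gene give the same CPM, so shares of cells with a UMI are given after thinning each cell to 1000 UMIs.

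Markers outside the gates fitted 3 of the 4 classes. The macrophage check list (Csf1r, Adgre1, Cd68, Mrc1, Apoe, Ms4a7 and Fcgr1) summed to 9555 CPM in macrophage-like cells, against 14.9 in tumour cells and 12.8 in T-like cells. The T check list (Trac, Trbc2, Cd2, Cd5 and Lck) summed to 1774 CPM in T-like cells, 8.60 in macrophage-like cells and 2.61 in tumour cells. The tumour check list (Epcam, Krt7, Krt19, Cdh1, Sox9 and Hmga2) stood at 1271 CPM in tumour cells, but also at 266 in macrophage-like cells (155 to 413 over tags) and 472 in T-like cells (38.8 to 735 over tags). The part of this tumour RNA in the members' levels was not tested, and its size is given below beside each member it touches. Adipocyte markers, 7 genes including Adipoq and Plin1, gave 7 UMIs in all tumour cells, 3 in macrophage-like cells and 0 in T-like cells.

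The dendritic gate went against its label. It was met by 3041 of the 5254 tumour-gate barcodes (57.9%), and Fscn1, an actin-bundling gene, stood at 95.4 CPM in tumour cells taken without regard to it. Of the 281 barcodes left in the gate, 185 had no Ptprc UMI. Over the 281, Sox9 stood at 630 CPM, Hmga2 at 355 and the fibroblast collagen Col1a1 at 641, while the antigen presentation genes Cd74 and H2-Aa stood at 366 and 185. This class is therefore called only by its gate. With Fscn1 taken out of the gate, a choice made after these values were seen, 64 barcodes remained (median 2384 UMIs), with Cd74 at 6726 CPM, H2-Aa at 3571, Ccr7 at 1752 and C1qa at 5.06. Ccr7 is itself a gate gene, and barcodes that also met the macrophage gate, set on the C1q genes, were left out. The Ccr7 and C1qa levels were therefore shaped by the gating and are not independent evidence for the name. Cd74 and H2-Aa were not gate genes. The 64 barcodes are called dendritic-like. With Fscn1 out of the gate, the tumour class rises to 5216 barcodes and the macrophage-like class to 397. The 397 macrophage-like barcodes held 2729456 UMIs in all, against 1976887 in the 373, so the 24 added ones were far deeper than the rest. Each dendritic-like ratio below is against these larger classes, whose levels are given with it.

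Fabp5 and Abca1 were the well-counted members with the clearest difference between macrophage-like and tumour cells. Against tumour cells, 7 of the 10 were past 2-fold higher in macrophage-like cells and none was past 2-fold lower, where 11.3% of 8813 genes with enough UMIs were higher and 19% lower. Of the 5 members deep enough to enter those 8813, 2 were higher (Fabp5 and Abca1), and their median log2 ratio was 0.84, beside -0.17 over the 8813 genes. Cd36, Lpl, Fabp4, Dgat2 and Abcg1 did not enter, and 2 of these calls rested on 1 tag: all 5 Dgat2 UMIs of macrophage-like cells came from D1 and 13 of the 15 Fabp4 UMIs from U2. With the tumour class of 5216 barcodes the same counts came to 7 and 0, beside 8.41% and 13%, and 2 of the 5 members that entered were higher.

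**Figure D1:**
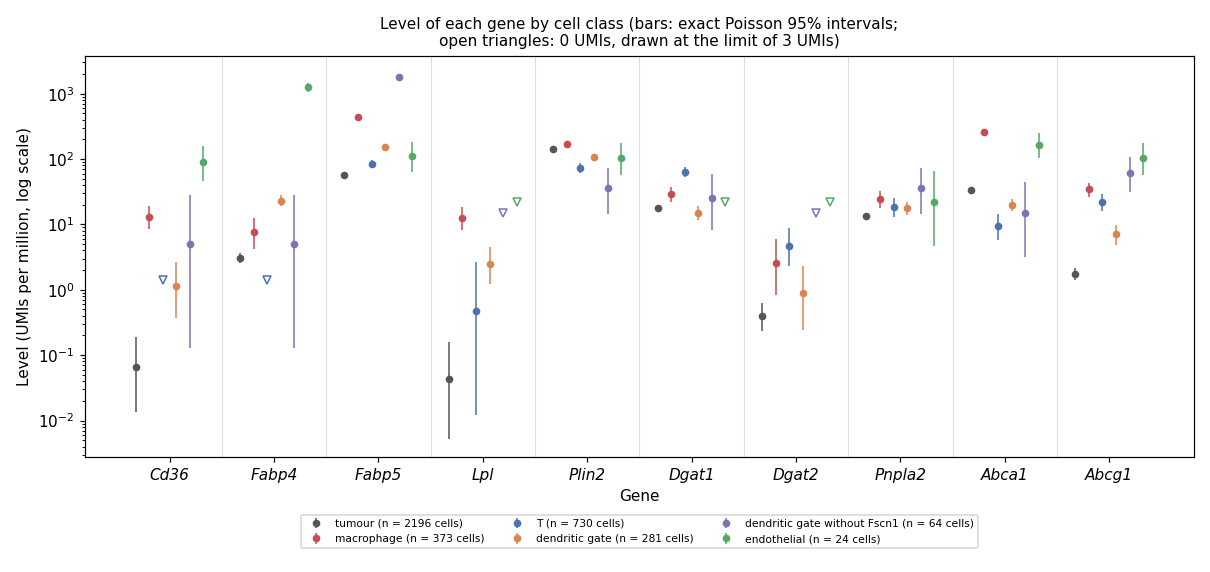
Level of each of the 10 genes by cell class (CPM, log axis), with points for the class sum, bars for the exact Poisson 95% interval, and open triangles at the 3-UMI limit where no UMI was counted. Fabp5 spans from 56.9 CPM in tumour cells to 1813 in the 64 dendritic-like cells, whereas Plin2 lies between 35.5 and 169 CPM in every class drawn.

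Fabp5 (chr3:10012548-10016607, plus strand) is the widely expressed fatty acid binding protein. Over the classes named next, it had the widest spread of the 5 members deep enough to enter the macrophage-like to tumour background. The sparser Abcg1 is not among these. It stood at 56.9 CPM in tumour cells, 84.4 in T-like cells, 443 (414 to 473) in macrophage-like cells and 1813 (1630 to 2011) in dendritic-like cells. The macrophage level was 7.79 times the tumour level (7.21 to 8.42). With Fscn1 out of the dendritic gate it was 5.71 times (5.33 to 6.11), and without tag U2 4.44 times. Tags U2, U4, D0 and D1, those with at least 20 macrophage-like cells, gave 833, 143, 364 and 297 CPM there, and the same tags gave 40.8, 61.5, 61.9 and 36.3 in tumour cells. Macrophage-like cells were higher in all 4, and the ranges of the 2 classes did not overlap. A single cell held 202 of the 876 Fabp5 UMIs. Without the top cell of each class the ratio was 6.23 (5.71 to 6.78), and with each tag's own top cell removed the 4 tags gave 480, 51.5, 91.0 and 268 CPM, so that U4 then fell within the range of the tumour values. At 1000 UMIs a cell, a Fabp5 UMI was found in 21.3% of macrophage-like cells (17.2 to 25.8; 47.2% before thinning) and in 4.86% of tumour cells (4.0 to 5.85; 36.7% before).

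The dendritic-like cells had the highest Fabp5 level of the classes compared. Their level was 5.34 times that of the 397 macrophage-like cells (340 CPM; 4.71 to 6.04) and 30.5 times that of the 5216 tumour cells (59.5 CPM; 27.3 to 33.9), with 358 UMIs in 31 of 64 cells and at most 55 in 1 cell. Without that cell the level was 1575 CPM. After thinning, 37.9% of 58 dendritic-like cells had a Fabp5 UMI (25.5 to 51.6). The tags were uneven: U3, which gave 26 of the 64 cells, stood at 452 CPM (284 to 685), while U2, U4, D0 and D1, with 3 to 18 cells each, stood at 2015, 2046, 1999 and 2324. Tag D4, with 2 cells, stood at 4209 CPM. Only U3 reached 20 cells. The tumour check list stood at 284 CPM in these cells, 21.7% of its level in the 5216 tumour cells.

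Cd36 (chr5:17781690-17888801, minus strand), the fatty acid and oxidised lipoprotein receptor, was nearly absent from tumour cells, with 3 UMIs in 2196 cells (0.0652 CPM). Macrophage-like cells had 26 UMIs (13.2 CPM, 8.59 to 19.3) in 10 cells, 13 of them in 1 cell, and T-like cells had none. The macrophage level was 202 times the tumour level (61.8 to 1041), a ratio that rests on those 3 tumour UMIs and was 9.90, at the limit of no tumour UMI, with levels from thinned cells and 1366 with tags weighted equally. By tag the macrophage values were 10.9 (U2), 0 (U4), 67.9 (D0) and 4.06 (D1) CPM, so D0 stood far above the other tags, and it fell to 4.92 without the 1 cell.

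Lpl (chr8:68880491-68907448, plus strand), which frees fatty acids from circulating triglyceride, gave 25 UMIs in 19 macrophage-like cells (12.6 CPM), 2 in tumour cells (0.0435 CPM), 1 in T-like cells and 11 in the dendritic gate. All kept barcodes together held 118 Lpl UMIs in 63 cells, so most lay outside these 4 classes. The macrophage to tumour ratio was 291 (72.5 to 2534), but 55.3 with tags weighted equally and 7.92, at the limit of no tumour UMI, with levels from thinned cells. Fabp4 (chr3:10204088-10208576, minus strand), the adipocyte and endothelial binding protein, lies 187480 bases from Fabp5 on the same chromosome and did not follow it. Fabp4 stood at 7.59 CPM in macrophage-like cells (15 UMIs in 6 cells) and 3.04 in tumour cells (140 UMIs in 48 cells). The ratio of 2.49 (1.36 to 4.26) turned to 0.427 without tag U2, which held 13 of the 15 macrophage UMIs, and was 1.62 without the top cells. In the dendritic gate it stood at 23.1 CPM, 7.58 times the tumour level (5.82 to 9.86), and 100 of those 102 UMIs came from the cells without Ptprc. In those cells the endothelial genes Pecam1 and Cdh5 stood at 41.6 and 38.4 CPM, beside Fabp4 at 35.6.

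A context gate on Pecam1, Cdh5, Egfl7 and Emcn without Ptprc took 24 endothelial-like cells, and these held Fabp4 at its highest level of the classes measured. Fabp4 stood there at 1243 CPM (1062 to 1447), with a UMI in 75% of the cells. Cd36 stood at 89.3 CPM (12 UMIs in 4 cells), Abca1 at 164 (22 UMIs) and Abcg1 at 104 (14 UMIs). Lpl, Dgat1 and Dgat2 had no UMI in these cells, which allows at most 22.3 CPM, taken as 3 UMIs. Against the 5216 tumour cells, 4 members were past 2-fold higher and none lower, where 5.61% of 1924 genes were higher and 22.6% lower. None of these 4 was deep enough to enter the 1924, which held 1 member, Plin2. The tumour check list stood at 44.7 CPM here.

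Plin2 (chr4:86648386-86670060, minus strand), the droplet coat protein made wherever neutral lipid is stored, varied little between tumour and macrophage-like cells. It stood at 143 CPM in tumour cells (6574 UMIs) and 169 in macrophage-like cells (335 UMIs), a ratio of 1.19 (1.06 to 1.32) that stayed below 2. Tumour values of the tags lay between 118 and 161 CPM (median 134), and the macrophage values were 136 (U2), 303 (U4), 296 (D0) and 141 (D1). Macrophage-like cells were above the tumour cells of their own tag in all 4, but U2 and D1 lay within the tumour range while U4 and D0 lay above it. Tumour check RNA in macrophage-like cells was 20.3% of its level in the 5216 tumour cells. For each 100 UMIs of that list there were 63.8 Plin2 UMIs in macrophage-like cells (55.5 to 73.3) and 11.2 in tumour cells (11 to 11.5). After thinning, 16.6% of macrophage-like cells (13 to 20.8) and 13.3% of tumour cells (11.9 to 14.8) had a Plin2 UMI. These intervals overlap, but they do not cover the random draw of UMIs. Another draw at the same depth gave 18.8% and 11.4%.

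T-like cells gave lower Plin2 values, 73.0 CPM, 0.511 times the tumour level (0.433 to 0.600) and lower in 6 of 6 tags. The 2-fold call was not made (0.643 against the 5216 tumour cells). Tumour check RNA stood at 36.1% of its level in the 5216 tumour cells in the T-like class, and per 100 UMIs of that list there were 15.5 Plin2 UMIs in T-like cells (13 to 18.3), above the 11.2 of the 2196 tumour cells (11 to 11.5) and the 8.69 of the 5216 (8.55 to 8.83). A Plin2 UMI was found in 3.8% of T-like cells after thinning, below the 7.45% with a UMI of Krt8, a keratin that T cells should lack and a more abundant tumour gene than Plin2 (44.9% and 13.3% of tumour cells). The Plin2 share is read neither as expression by T cells nor as tumour RNA, and the part of tumour RNA in it was not tested. Dendritic-like cells had 7 Plin2 UMIs (35.5 CPM), 0.246 times the level of the 397 macrophage-like cells (144 CPM; 0.0983 to 0.512), so Plin2 was low where Fabp5 was high.

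Dgat1 (chr15:76502015-76511953, minus strand), 1 of 2 enzymes for the final step of triglyceride synthesis, had its highest level among the 4 gates in T-like cells. It stood at 63.1 CPM there (133 UMIs in 103 cells), against 29.3 in macrophage-like cells and 18.1 in tumour cells. The T to tumour ratio was 3.49 (2.88 to 4.19; 5.53 with levels from thinned cells), and T-like cells were higher in 6 of 6 tags. Tag values lay between 24.8 and 126 CPM in T-like cells (median 70.7) and between 14.7 and 20.4 in tumour cells, so the classes did not overlap. Per 100 tumour check UMIs there were 13.4 Dgat1 UMIs in T-like cells (11.1 to 16.0) and 1.42 in tumour cells (1.33 to 1.52). After thinning, 7.30% of T-like cells (5.47 to 9.51) and 1.60% of tumour cells had a Dgat1 UMI. The T-like share is close to the 7.45% of the Krt8 gauge, though Krt8 was seen in far more tumour cells than Dgat1. The part of tumour RNA in the T-like share was not tested.

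Within the T-like class, cells with a Cd4 or Foxp3 UMI and no Cd8a were set against cells with Cd8a, a split chosen after the levels were seen. Dgat1 stood at 158 CPM in the 120 Cd4 or Foxp3 cells and at 26.4 in the 219 Cd8a cells, a ratio of 6.0 (3.52 to 10.7), higher in 2 of 2 tags with enough cells. Fabp5 followed, at 194 against 58.3 CPM, a ratio of 3.33 (2.24 to 5.01), also in 2 of 2 tags. Plin2 did not, at 72.2 against 87.5. Of 4701 genes, 6.13% were past 2-fold higher and 6.04% lower in this split.

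Dgat2 (chr7:99153658-99182719, minus strand), the second enzyme of that step, was sparse in all 4 gates, with 18 UMIs in tumour cells (0.391 CPM), 10 in T-like cells (4.74), 5 in macrophage-like cells (2.53) and 4 in the dendritic gate. The ratio of T-like to tumour cells was 12.1 (5.0 to 27.7), with 3 tags higher and 1 lower. Pnpla2 (chr7:141455198-141460743, plus strand), the lipase that starts droplet breakdown, stood at 13.6 CPM in tumour cells, 24.3 in macrophage-like cells and 18.5 in T-like cells. Neither ratio, 1.79 (1.31 to 2.40) and 1.36, passed 2-fold.

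Over all 10 members, T-like cells were past 2-fold higher than tumour cells in 3 (Dgat1, Dgat2 and Abcg1) and lower in 2 (Abca1 and Fabp4), beside 9.97% and 12.4% of 8914 genes. Of the 5 members that entered the 8914, 1 was higher (Dgat1) and 1 lower (Abca1), too few to set against those shares. The lower call for Fabp4 rests on no UMI in T-like cells, which bounds the ratio at 0.467, and it was not made against the 5216 tumour cells, where the bound was 0.77. Against those 5216 cells 4 members were higher and 1 lower, beside 8.35% and 13.8% of 8905 genes. The added higher call was Lpl, on 1 UMI in T-like cells (ratio 8.28, 0.187 to 61.7), with 1 tag higher and 4 lower. Of the 5 members that entered the 8905, 1 was higher and 1 lower.

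Abca1 (chr4:53030787-53159895, minus strand), the exporter that loads cholesterol onto apolipoproteins, was a macrophage-like gene among the 4 gates. It stood at 260 CPM in macrophage-like cells (514 UMIs), 33.5 in tumour cells, 20.1 in the dendritic gate and 9.48 in T-like cells. The macrophage to tumour ratio was 7.75 (7.0 to 8.57), and 9.99 (9.11 to 10.9) with Fscn1 out of the gate (206 against 20.6 CPM). It was 29.9 with the gates set on thinned cells. Tags U2, U4, D0 and D1 gave 330, 160, 175 and 260 CPM in macrophage-like cells, against 21.3 to 45.2 in the tumour cells of the 6 tags (median 30.7), so the lowest macrophage value lay above the highest tumour one. In T-like cells the tags ran from 0 to 14.5 CPM, and all 6 lay below the tumour cells of the same tag. Per 100 tumour check UMIs there were 2.01 Abca1 UMIs in T-like cells (1.22 to 3.12), beside 2.64 in the 2196 tumour cells, 1.57 in the 5216 and 97.9 in macrophage-like cells. After thinning, 22.9% of macrophage-like cells (18.7 to 27.5), 3.85% of tumour cells and 0.438% of T-like cells had an Abca1 UMI. The T-like share, below the 7.45% of Krt8, is read neither as expression nor as tumour RNA, and the part of tumour RNA in it was not tested. Dendritic-like cells had 3 UMIs (15.2 CPM), 0.0739 times that of the 397 macrophage-like cells (0.0152 to 0.217).

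Abcg1 (chr17:31057675-31117988, plus strand), the partner exporter to lipoprotein particles, was low in tumour cells and present in every immune class. Its span overlaps the short rRNA gene Gm25447. Tumour cells stood at 1.76 CPM (81 UMIs), T-like cells at 21.8 (46 UMIs in 45 cells), macrophage-like cells at 34.4 (68 UMIs in 57 cells) and dendritic-like cells at 60.8 (12 UMIs in 9 cells). The ratio to tumour cells was 19.5 for macrophage-like (13.9 to 27.3; higher in 4 of 4 tags; 53.9 with tags weighted equally) and 12.4 for T-like cells (8.43 to 18.0; 6 of 6 tags). By tag, macrophage-like cells gave 41.7 (U2), 58.9 (U4), 48.5 (D0) and 25.4 (D1) CPM. T-like cells ran from 14.5 to 36.1 CPM. After thinning to 1000 UMIs a cell, no tumour cell of 2181 had an Abcg1 UMI in the draw used for the shares. In another draw at that depth 0.138% of them had one, and before thinning 3.46% did. In the draw used for the shares, a UMI was seen in 4.90% of the macrophage-like class and 3.21% of the T-like class. The T-like share is below that of Krt8, a gene seen in far more tumour cells than Abcg1, and the part of tumour RNA in it was not tested. Per 100 tumour check UMIs there were 4.62 Abcg1 UMIs in T-like cells (3.36 to 6.21) and 0.139 in tumour cells. So the 2 exporters differed in T-like cells: Abca1 was below and Abcg1 above the tumour level.

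**Figure D2:**
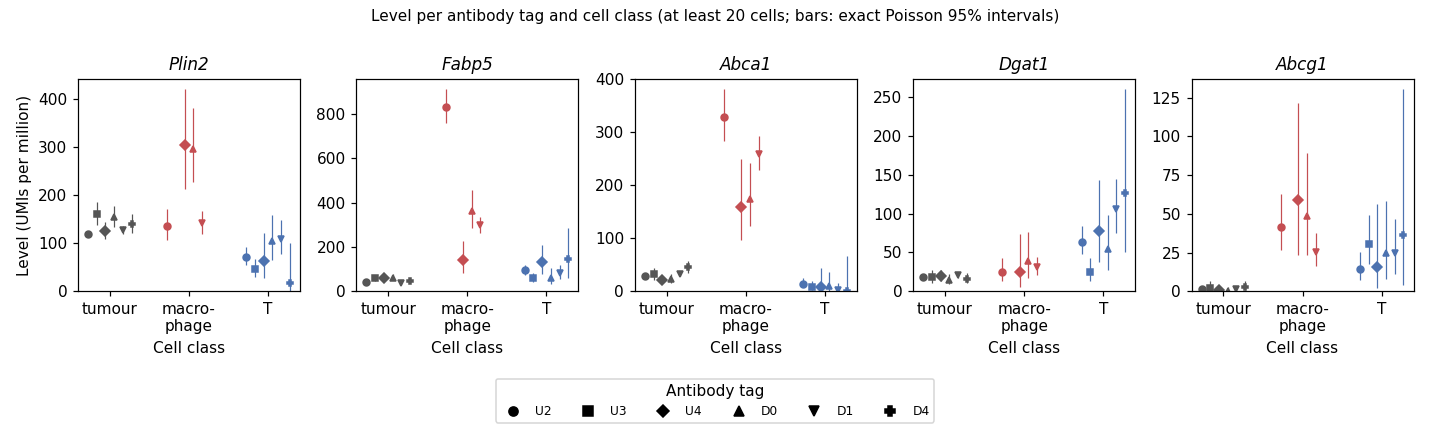
CPM of Plin2, Fabp5, Abca1, Dgat1 and Abcg1 by tag (1 point for each tag with at least 20 cells, bars for the exact Poisson 95% interval) in tumour, macrophage-like and T-like cells. Macrophage-like Abca1 lies at 160 to 330 CPM over 4 tags, above all tumour values of 21.3 to 45.2, whereas Plin2 overlaps between these classes.

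**Figure D3:**
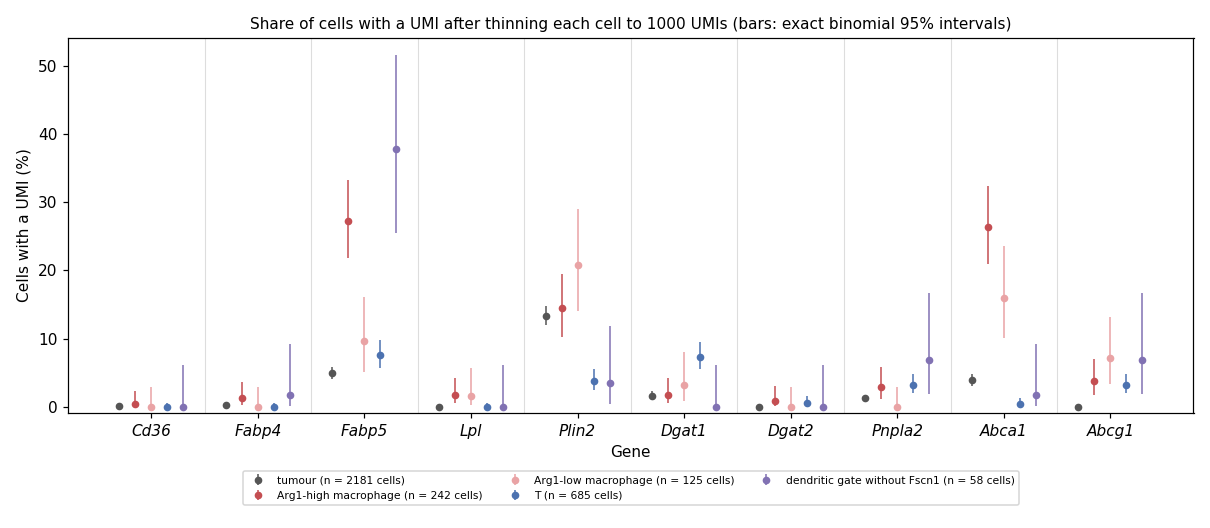
Percent of cells with at least 1 UMI of each member after thinning every cell to 1000 UMIs, with exact binomial 95% intervals, by class. Fabp5 runs from 4.86% of tumour cells to 37.9% of dendritic-like cells, and Dgat1 is at 7.30% in T-like cells against 1.60% in tumour cells.

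Macrophage-like cells were next split by Arg1, the arginase that marks one state of tumour macrophages, into 245 Arg1-high cells (at least 2 UMIs, median 4616 UMIs in all) and 128 Arg1-low cells (median 3386.5). Fabp5 stood at 569 CPM in Arg1-high and 115 in Arg1-low cells, a ratio of 4.96 (3.84 to 6.52). In tag U2 the values were 931 against 120, in D0 601 against 45.5 and in D1 379 against 132, so Arg1-high cells were higher in 3 of 3 tags. Without the top cells the ratio was 4.07 (3.1 to 5.42). The D0 value of Arg1-high cells rested on 1 cell with 57 of its 71 UMIs and was 127 without it, while U2 and D1 stayed at 531 and 335. After thinning, 27.3% of Arg1-high cells (21.8 to 33.3) and 9.60% of Arg1-low cells (5.06 to 16.2) had a Fabp5 UMI.

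The 2 exporters went opposite ways across this split, short of 2-fold. Abca1 stood at 286 against 191 CPM, a ratio of 1.5 (1.21 to 1.87), with 334 against 300 in U2, 254 against 68.2 in D0 and 279 against 221 in D1. Abcg1 stood at 28.7 against 49.2 CPM, a ratio of 0.584 (0.351 to 0.987), with 33.0 against 105 in U2, 25.4 against 79.5 in D0 and 22.7 against 30.7 in D1. So Abca1 was higher and Abcg1 lower in the Arg1-high cells of 3 of 3 tags. The Arg1-low values of D0 rest on few UMIs: 1 cell held 4 of its 7 Abcg1 UMIs and 1 held 3 of its 6 Abca1 UMIs, and without those cells they were 35.5 and 35.4 CPM. With the split made on thinned cells the Abcg1 ratio was 1.08, so its order was lost. Plin2 showed no such order: 165 against 182 CPM, a ratio of 0.903 (0.712 to 1.15), with Arg1-high cells higher in U2 (140 against 105) and lower in D0 (271 against 330) and D1 (129 against 166). Dgat1 was level, at 29.4 against 29.2. Fabp5 was the 1 member past 2-fold higher, and Lpl (14 against 11 UMIs, ratio 0.489, 0.206 to 1.19) the 1 lower, beside 2.26% and 1.61% of 5586 genes. Of the 6 members that entered the 5586, Fabp5 was higher and none was lower. Fabp4 had 15 UMIs in Arg1-high cells and none in Arg1-low cells, where the bound on the ratio was 1.92. Neutrophil markers (S100a8, S100a9, Csf3r and Retnlg) summed to 169 CPM in Arg1-high cells (37.1 to 1660 over tags, highest in D0) and to 12.8 in Arg1-low cells. The erythroid pair Hbb-bs and Hba-a1 stood at 124 and 3.64 CPM, and the tumour check list at 282 and 222. The pair Pf4 and Ppbp, listed as platelet markers, stood at 1192 and 599 CPM, and 1 of them had no UMI in Arg1-low cells. That pair stood at 1027 CPM in all macrophage-like cells, 0.435 in tumour cells and 0.474 in T-like cells. Whether platelets or the macrophage-like cells themselves made it was not tested. The part of neutrophil, erythroid, platelet or tumour RNA in the split was not tested. The Fabp5 ratio was 4.42 without tag D0 and 5.09 without the macrophage-like cells that held a keratin UMI.

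**Figure D4:**
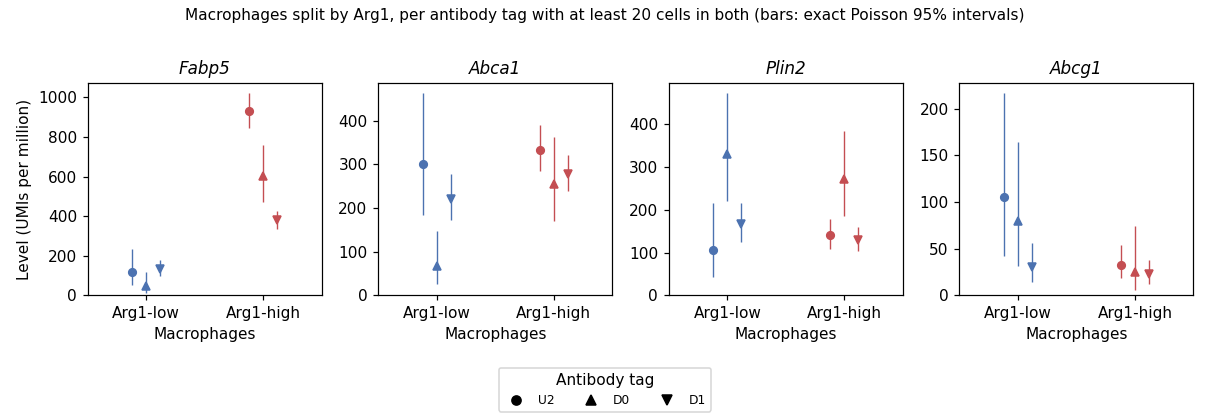
CPM of Fabp5, Abca1, Plin2 and Abcg1 in Arg1-high and Arg1-low macrophage-like cells of tags U2, D0 and D1, with exact Poisson 95% intervals. Fabp5 and Abca1 are higher and Abcg1 lower in the Arg1-high cells of each tag, and Plin2 crosses.

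The dendritic gate as written had 6 members past 2-fold higher than in tumour cells and none lower, beside 2.81% and 0.656% of 10060 genes. Of the 6 members that entered the 10060, 2 were higher (Fabp4 and Fabp5). It had 1 higher and 6 lower than in macrophage-like cells, beside 19.5% and 13.2% of 9464 genes. Of the 8 members that entered the 9464, 1 was higher and 4 were lower. Fabp5 stood at 155 CPM in the gate as written, 2.72 times the tumour level (2.49 to 2.96), and Abca1 at 0.600 and Plin2 at 0.757 times. For the 64 dendritic-like cells the counts were 5 and 1 against tumour cells (4.35% and 33.2% of 2714 genes) and 2 and 2 against macrophage-like cells (5.8% and 19% of 2810 genes). Of the 2 members that entered the 2714, 1 was higher (Fabp5) and 1 lower (Plin2). The other higher calls against tumour cells rested on 1 UMI each (Cd36 and Fabp4), 7 (Pnpla2) and 12 (Abcg1). Of the 3 members that entered the 2810, 1 was higher (Fabp5) and 2 were lower (Plin2 and Abca1). These are too few to set against those shares.

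Tumour cells outside and inside the dendritic gate, set apart by the gate's own genes, differed in some members too. Abca1 stood at 33.5 CPM in the 2196 cells outside and 14.3 in the 3041 inside, a ratio of 2.34 (2.18 to 2.52), higher outside in 6 of 6 tags. Plin2 stood at 143 against 99.5 CPM, 1.44 times (1.39 to 1.48), also in 6 of 6 tags. Fabp5 did not share this, at 0.931 times. Fabp4 was 2.43 times higher outside, in 4 of 6 tags. Only 0.844% of 12682 genes were past 2-fold higher outside and 1.36% lower. The cells inside were deeper, with a median of 28909 UMIs, and the comparison was chosen after seeing the data.

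Among tumour cells the tags differed by up to 2.12 times in the well-counted members. Abca1 ran from 21.3 to 45.2 CPM, the widest of these, Plin2 ran from 118 to 161 CPM, Fabp5 from 36.3 to 61.9, Dgat1 from 14.7 to 20.4 and Pnpla2 from 11 to 20.1. Since the arms of the tags are not known, these ranges hold both treated and untreated samples. In the 5216 tumour cells Fabp5 spread further, from 34.1 to 105 CPM.

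Other genes of the pathway came from 9 lists, and the counts cover list genes with enough UMIs. Of 16 genes for fatty acid transport and binding, 6 were counted; none was higher in macrophage-like than in tumour cells and 2 were lower, Angptl4, a secreted inhibitor of lipoprotein lipase (4.05 against 28.2 CPM), and Lipg, an endothelial lipase (3.04 against 14). Got2 stood at 53.1 against 58.6. Of the lipoprotein and scavenger receptors, 6 of 11 were higher and 1, Vldlr, lower, with a median log2 ratio of 1.38 beside -0.17 over all genes. Lrp1, the most abundant of the list's genes named here, passed in neither direction (294 against 424 CPM), and the scavenger receptor Msr1 stood at 404 against 0.130. Cholesterol ester and lysosomal lipid genes had 6 of 8 higher and none lower, with a median of 1.58. Apoe, the apolipoprotein that accepts exported cholesterol, stood at 7689 against 2.30 CPM, and Npc2, which hands lysosomal cholesterol on, at 1421 against 686.

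Of the acyl-CoA synthetases and binding genes, none of 5 was higher and 1, Acsl3, lower (25.8 against 80.6 CPM), while Dbi stood at 551 against 773 and Acsl4 at 86.5 against 133. Of the triglyceride and droplet synthesis genes, 1 of 10 was higher (Bscl2, 41.5 against 5.39) and 1 lower (Agpat3, 19.2 against 49.2), while Agpat4 stood at 58.7 against 59.3 and Lpin2 at 67.3 against 62.5. Of the droplet coat and lipolysis genes, 1 of 5 was higher and 2 lower. The higher one was Hilpda, a hypoxia-induced inhibitor of the lipase encoded by Pnpla2, at 294 against 56.8 CPM, a ratio of 5.18 (4.73 to 5.67), and Aup1 stood at 84.0 against 60.0. The lower pair was Abhd5, an activator of that lipase (21.8 against 54.1 CPM), and Mgll, which cuts the last acyl chain (4.05 against 49). Hilpda was also 3.22 times higher in T-like cells (2.89 to 3.59).

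Few genes of the receptor pathway lists passed 2-fold, where 11.3% of 8813 genes were higher and 19% lower. Of the LXR list, none of 7 was higher and 1 was lower, the desaturase Scd1 at 31.9 against 123 CPM. Lpcat3 stood at 20.2 against 26.5, and the list's median log2 ratio was 0.31. The members Abca1 and Abcg1, named above as LXR targets, are not among these 7 genes. They stood at 7.75 and 19.5 times the tumour level, Abcg1 without entering the 8813. The list's count therefore does not cover every known LXR target. Of the PPAR list, 1 of 5 was higher, Ucp2 (472 against 0.413), with Ppard at 20.2 against 17.4 and a median of 0.57. Both medians lay above the -0.17 over all genes, and the counts are too few to set against those shares. Of the hypoxia list, 3 of 8 were lower and none higher (P4ha1 165 against 370, Ndrg1 150 against 348, Car9 43.5 against 119), a count that fell to 0 against the 5216 tumour cells.

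In T-like against tumour cells the hypoxia list had 6 of 8 lower and none higher, with a median log2 ratio of -1.12 beside -0.04 over all genes. Against the 5216 tumour cells 2 of 8 were lower. The lipoprotein and scavenger receptors had 4 of 10 lower, Lrp1 among them (145 against 424 CPM), and 1 higher. Fatty acid transport and binding had 3 of 6 lower and none higher. Each of the other 6 lists had at most 2 genes past 2-fold in either direction. In the Arg1 split 5 of the 9 lists had no gene past 2-fold. The exceptions were triglyceride and droplet synthesis (Gpat3 and Bscl2 higher), the LXR list (Mylip lower, 0.384, 0.219 to 0.673), the PPAR list (Cpt1a higher, 3.36, 1.20 to 13) and hypoxia (Bnip3 and Egln3 higher, 2.36 and 2.24). The hypoxia list's median log2 ratio was 0.85, beside -0.06 over all genes.

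Among macrophage-like cells thinned to 1000 UMIs, Fabp5 was the most uneven of the members seen in over 5% of cells. The variance of its count over cells was 3.53 times the mean, beside 1.25 for Plin2 and 1.07 for Abca1. The sparse Cd36 gave 2.99, and at 2000 UMIs a cell 8.02 beside 6.12 for Fabp5, where counting alone, at the same rate in every cell, gives a ratio near 1. In tumour cells the values were 1.62 for Fabp5 and 1.20 for Plin2. The genes whose counts went most with Fabp5 over 367 macrophage-like cells were Fth1 (r = 0.31), Ftl1 (0.31), Cstb (0.30), Lgals3 (0.25) and Mmp12 (0.24), Fth1 and Ftl1 being the ferritin chains. For Abca1 they were Pdpn (0.27), Arg1 (0.23), Nrp2 (0.21) and Cab39 (0.21), and for Plin2 Rsad2 (0.23). None of the genes named for Abca1 was in its top 5 at 2000 UMIs, with doublets kept or with Fscn1 out. Rsad2 was in the top 5 of Plin2 at 2000 UMIs only. Fth1 and Ftl1 stayed in the top 5 of Fabp5 in each of these settings. In tumour cells at 1000 UMIs no gene reached 0.2 with the members seen often enough. At 2000 UMIs Ftl1 reached 0.23 with Plin2. Ftl1 was also first for Plin2 in the settings at 1000 UMIs, with 0.16 in the main one. The members hardly went with one another: r was 0.185 for Fabp5 and Abca1, 0.064 for Fabp5 and Plin2 and 0.036 for Plin2 and Abca1. These are descriptions over cells of 1 library, in sparse counts.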

How the data were processed

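Gene expression and antibody tags were read from 1 pool of 6 mouse tumour samples on 1 10x Chromium lane (3′ kit with feature barcodes, per the labels' protocols). The values are raw UMI counts per gene and barcode as deposited by the authors. Cell Ranger and mm10 are named in the submitters' processing notes, and the matrix header gives software 3.1.0. The 10 members and all lists were chosen with earlier results of these data known.

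Barcodes needed at least 500 genes (696 fell below) and under 15% mitochondrial UMIs (267 did not). HTODemux of Seurat 5.3.0 in R 4.3.3 (quantile 0.99, seed 42) marked 865 of 8784 barcodes (9.85%) as doublets, which were left out. Doublets of cells with the same tag cannot be seen this way. Gates needed at least 3 Krt8 and Krt18 UMIs with 0 Ptprc, 3 C1qa, C1qb and C1qc UMIs, 2 Cd3d, Cd3e and Cd3g UMIs, or 2 Ccr7, Fscn1, Flt3 and Cd209a UMIs without Cd3. Of the kept barcodes, 3580 met 1 gate, 3090 met more than 1 and 1249 met none. Summed counts were scaled to CPM. A gene entered the background where the pooled rate gave at least 10 UMIs in the smaller class, and a count of 0 was set at 3 UMIs for a call. A tag was used with at least 20 cells in a class. With 1 pool and unknown arms, no p-value was computed. The comparison script was checked on simulated counts with known changes.

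Levels are compared within a gene only, since UMI counts at the 3′ end carry no length scaling. Genes were named by rule: the members, the 2 genes with the most UMIs in each related list, up to 5 genes with r of at least 0.2 with a member in a class, and gate genes. Other names were chosen after their values were seen, and 2 genes that the rule names are not reported here. Analyses used Python 3.11.15 with numpy 2.4.6, scipy 1.17.1 and pandas 2.3.3, and edgeR 4.0.16 for scaling factors only. Alternatives were other filters, gates, depths, scaling and folds, each tag left out, and, chosen after seeing the data, Fscn1 out of the dendritic gate, macrophage-like cells without keratin UMIs, the Arg1 split on thinned cells and the top cell of each class left out. Coordinates are GRCm38 with GENCODE M21, and all 10 members are protein-coding there. Muscle markers (Acta1, Ckm, Myh4 and Tnnt3) and mammary luminal markers (Csn3, Wap and Lalba) summed to 0.456 and 0.0217 CPM in tumour cells. The dendritic check list (Zbtb46, H2-Aa, Cd74, Xcr1, Clec9a, Irf8, Batf3 and Ccl22) summed to 11715 CPM in the 64 dendritic-like cells and 645 in the gate as written. It also summed to 7781 CPM in macrophage-like cells and 10104 in the Arg1-low ones, so its sum does not set dendritic-like cells apart from these.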

Additional observations from a re-analysis of the deposited data

Results flagged for a closer look

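In 8 of 28 sets of tag values (1 gene in 1 class), 1 tag stood apart from the others by more than Dixon's limit. The limit's rate of about 1 in 20 holds for normally spread values. Where all other tags are at 0, even 1 UMI passes it, so the 8 are not set against that rate. All 8 rest on few UMIs or on 1 cell. In macrophage-like cells Cd36 stood at 67.9 CPM in tag D0 (14 UMIs, 13 in 1 cell), with 10.9 the nearest other tag, and Dgat2 at 5.07 CPM in D1 (5 UMIs), with 0 in the others. In tumour cells Fabp4 stood at 16.6 CPM in D4, from 25 UMIs in 1 cell, beside 3.76 in the nearest tag, Cd36 at 1.33 CPM in D4 (2 UMIs) and Lpl at 0.627 CPM in U4 (1 UMI). In T-like cells Dgat2 stood at 16.3 CPM in D1 (6 UMIs) beside 3.81, Pnpla2 at 54.1 CPM in D4 (3 UMIs) beside 27.1, and Lpl at 1.91 CPM in U3 (1 UMI).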

How the results depend on the processing

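Of the single-gene ratios under the alternatives, 756 stayed within the main interval on the same side, 152 moved and 12 reversed. For the counts and shares, 182 stayed and 66 moved. TMM scaling shifted T-like against tumour ratios by -0.27 and Arg1-high against Arg1-low ratios by 0.11 (log2), reversing none.

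Macrophage-like against tumour, members lower: 0, but 1 without tag U2 (0 to 1 over tags left out). T-like against tumour, members lower: 2, but 1 with doublets kept, with several gates allowed, with 1000 genes, with doubled gates, with gates on thinned cells, with exactly 1 tag, and with Fscn1 out (1 to 2 over tags left out). Dendritic gate against tumour, members higher: 6, but 1 with several gates, and 3 with thinned levels or exactly 1 tag; members lower: 0, but 1 with thinned levels, a 1.5 fold, Fscn1 out or equal tag weights. Dendritic gate against macrophage-like, members higher: 1, but 0 with several gates, doubled gates, gates on thinned cells, exactly 1 tag or equal weights (0 to 1 over tags left out), and 2 with Fscn1 out; members lower: 6, but 3 with gates on thinned cells and 2 with Fscn1 out. Arg1 split, members higher: 1, but 2 with doublets kept, thinned levels, TMM, Fscn1 out, no keratin or equal weights (1 to 2 over tags left out), 3 at a 1.5 fold, and 4 with several gates, doubled gates or the split on thinned cells; members lower: 1, but 0 with doublets kept, several gates, gates on thinned cells, thinned levels, TMM, the thinned split or top cells left out (0 to 1 over tags left out), and 2 at a 1.5 fold.

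Related lists, macrophage-like against tumour: 15 higher (24 at a 1.5 fold) and 11 lower (5 with several gates); T-like: 6 higher (2 with 1000 genes) and 19 lower (2 with doublets kept, 10 with several gates, 1 with 1000 genes, 30 at a 1.5 fold). Shares at 500 and 2000 UMIs a cell were 12.9% and 31.6% for Fabp5 and 12.3% and 38.1% for Abca1 in macrophage-like cells, 7.47% and 23.3% for Plin2 in tumour cells (10.8% with Fscn1 out) and 3.56% and 9.68% for Dgat1 in T-like cells. The Fabp5 variance to mean ratio was 6.12 at 2000 UMIs, and its highest over lowest tumour tag was 1.70, or 3.50 with untagged barcodes given to their strongest tag. At the unchanged 1000 UMIs the Fabp5 variance ratio was 4.72 with doublets kept and 4.18 with Fscn1 out. The Plin2 share with Fscn1 out was also taken at 1000 UMIs. Causes of these shifts were not tested.

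Ratios past 2-fold that reversed were Fabp4 in T-like to tumour (2.64 with doublets kept), macrophage-like to tumour (0.660 with thinned levels, 0.427 without U2, and 0.427 to 3.96 over tags left out) and dendritic gate to macrophage-like (0.451 with several gates, 0.469 with doubled gates, 0.768 with Fscn1 out), Dgat2 in dendritic gate to tumour (0.943 with several gates, 0.377 with equal weights), Fabp5 in dendritic gate to macrophage-like (1.09 with thinned levels, 5.34 with Fscn1 out), Abcg1 there (2.30 with Fscn1 out) and Lpl in the Arg1 split (1.02 without D1, and 0.440 to 1.02 over tags left out). A further 10 of the 48 ratios, none past 2-fold, crossed 1 under an alternative, among them Abca1 in dendritic gate to tumour (0.600, but 2.70 with gates on thinned cells), Dgat1 there (0.838, but 1.47 with Fscn1 out), Pnpla2 in T-like to tumour (1.36, but 0.764 with 1000 genes) and Abcg1 in the Arg1 split (1.08 with the split on thinned cells). The Abca1 ratio there ran from 1.35 to 1.99 and the Fabp5 ratio from 2.56 to 8.20. Depth limits Cd36, Lpl, Fabp4 and Dgat2 most.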

Other observations

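Natural killer-like cells (118) and B-like cells (62) met context gates of their own. In the first, Dgat1 stood at 39.6 CPM (24 UMIs in 21 cells), Plin2 at 74.2, Fabp5 at 42.9 and Abcg1 at 18.1, with 1 Abca1 UMI. In the second, 7 cells held 1 Abca1 UMI each (72.1 CPM, 29.0 to 148) and Abcg1 had 4 UMIs. Cd36, Fabp4, Lpl and Dgat2 had no UMI in either class. Each is 1 class of 1 pool, with no test.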
